A study of Mus musculus with 21 samples.

Results

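The 32 genes described here sense damaged DNA, halt the cell cycle on it or repair it. They were chosen by name and found by their gene symbol in all 21 libraries, 32 of the 55335 gene identifiers measured. A further name on the list, Claspn, is not a symbol in the files and has no value. The members fall into 12 checkpoint genes, 13 genes of double-strand break repair and 7 genes of base excision repair. The names were put together with the levels in Aged and Young oocytes already known, and 7 of them (Chek2, Cep63, Prpf19, Tiprl, Neil2, Pold1 and Cyren) are on the list of oocyte aging genes that the study drew up from these same libraries, so their levels in Aged and Young oocytes are described without a test.

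RNA was sequenced from oocytes (12 libraries) and granulosa cells (9 libraries) of ICR mice. Young mice were 6 to 8 weeks old and Aged mice were 18 months old. The 3 transplanted groups were aged mice whose ovaries had received human umbilical cord mesenchymal stem cells under the ovarian capsule, taken 3 weeks later: Aged + Unsorted received the whole cell population, Aged + LRP1high received the cells sorted for high surface LRP1 (an endocytic receptor), and Aged + LRP1low those sorted for low LRP1. Oocyte libraries numbered 3 Young, 2 Aged, 2 Aged + Unsorted, 3 Aged + LRP1high and 2 Aged + LRP1low. Granulosa cell libraries numbered 1 Young, 2 Aged, 1 Aged + Unsorted, 3 Aged + LRP1high and 2 Aged + LRP1low. The labels call replicates biological and do not say which animals or how many oocytes made up each library, so p-values measure the spread between these libraries.

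A break across both strands of DNA is recognised by the Mre11-Rad50-Nbn complex, which activates the kinase Atm, whereas single-stranded DNA at stalled forks activates Atr with the help of Topbp1, Rad17 and the ring clamp of Rad9a and Hus1. These kinases switch on Chek2 and Chek1, and through them or directly the transcription factor Trp53. Broken ends are then joined directly, beginning with the Ku proteins (Xrcc5 and Xrcc6) and Prkdc, or copied from the sister chromatid by a route that needs Brca1, Palb2 and Brca2. Single damaged bases are cut out by glycosylases, nicked by Apex1 and resealed with Xrcc1 as the scaffold. Oocytes wait in a long meiotic arrest and keep their DNA under the watch of this system, and in immature oocytes Chek2 is known to pass the signal of unrepaired breaks to p53-family proteins.

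The promoters of 4 members are shown because 2 of them (Prpf19 and Cyren) were the members called lower in Aged + LRP1high than in Aged oocytes, and the other 2 (Chek2 and Xrcc6) carry a binding motif of the E2F factors, which drive genes of the S phase. Each is the 250 bases upstream of a RefSeq transcript start in GRCm38.p6, read 5′ to 3′ on the strand of the gene. Capitals mark matches, on either strand, to TTTGGCGC, TTTCGCGC, TTTCCCGC or TTTGCCGC (E2F) or to CCAAT (the CCAAT box). Chek2 lies on the plus strand at chr5:110839733-110839982, Xrcc6 on the plus strand at chr15:82016119-82016368, Cyren on the minus strand at chr6:34878066-34878315 and Prpf19 on the plus strand at chr19:10894981-10895230. The Xrcc6 start lies 28534 bases inside the gene span that the files give, and the starts of the other 3 lie within 5 bases of it.
Chek2: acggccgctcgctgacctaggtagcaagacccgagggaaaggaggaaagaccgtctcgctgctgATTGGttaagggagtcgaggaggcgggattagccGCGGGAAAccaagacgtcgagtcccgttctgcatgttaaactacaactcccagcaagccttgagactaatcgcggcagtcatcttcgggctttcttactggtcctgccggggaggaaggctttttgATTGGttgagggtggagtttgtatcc
Xrcc6: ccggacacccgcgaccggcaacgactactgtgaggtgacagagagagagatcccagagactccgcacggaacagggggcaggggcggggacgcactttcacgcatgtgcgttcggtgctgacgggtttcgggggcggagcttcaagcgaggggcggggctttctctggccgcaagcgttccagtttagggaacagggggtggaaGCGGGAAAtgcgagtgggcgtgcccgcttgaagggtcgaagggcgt
Cyren: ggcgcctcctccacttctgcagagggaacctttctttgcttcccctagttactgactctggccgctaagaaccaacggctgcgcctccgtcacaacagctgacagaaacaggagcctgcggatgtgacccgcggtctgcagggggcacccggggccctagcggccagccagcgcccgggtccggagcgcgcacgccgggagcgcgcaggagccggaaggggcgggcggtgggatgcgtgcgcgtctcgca
Prpf19: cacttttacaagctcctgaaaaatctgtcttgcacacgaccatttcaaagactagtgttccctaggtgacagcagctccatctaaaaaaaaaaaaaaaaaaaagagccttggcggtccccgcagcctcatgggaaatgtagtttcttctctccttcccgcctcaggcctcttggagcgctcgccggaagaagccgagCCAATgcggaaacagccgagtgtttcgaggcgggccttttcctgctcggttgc

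A RefSeq start was found for 26 members. The E2F letters stood in 6 of the 26 windows (23.1%), against 1.9% of the 27025 promoters of the same length, and the CCAAT letters stood in 11 (42.3%) against 34.4%. The E2F windows were those of Chek2, Topbp1, Cep63, Brca2, Mdc1 and Xrcc6. The E2F letters contain CG, and the members' windows held a median of 18 CG dinucleotides against 6 in all promoters. TTTGAA, the letters of the cell cycle homology region, stood in 2 windows (7.7%, against 16.3%) and CANNTG, the E-box, in 12 (46.2%, against 66.1%). A match is a stretch of letters and not a measured site.

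Several libraries stood apart before any gene was compared. The median FPKM (fragments scaled by gene length and library size) of 10 oocyte markers such as Zp3 and Gdf9 was 0.892, 84.9 and 595 in the Young oocyte libraries, 11.6 and 716 in Aged, 647 and 1001 in Aged + Unsorted, 799, 687 and 161 in Aged + LRP1high, and 5.02 and 7.77 in Aged + LRP1low. Young replicate 1, Aged replicate 1 and both Aged + LRP1low libraries were thus low in oocyte RNA, and their median over 332 vomeronasal receptor genes, which are silent in the ovary, was 0.336, 2.13, 2.70 and 2.48 FPKM against 0 to 0.0756 in the other oocyte libraries. The 95th percentile of these silent genes is used here as the background of a library. It was 1.43, 7.31, 5.35 and 5.39 FPKM in those 4 and 0.131 to 3.12 in the others, with the 3.12 in Aged replicate 2. The summed FPKM of 7 immune markers was 57.8 and 42.9 in Aged, 46.9 and 31.0 in Aged + LRP1low and at most 9.37 in the other oocyte libraries. In Aged replicate 2, Cd3e made up 35.8 of this sum and 4 of the 7 markers were at 0. The immune median was 11.7 in Aged replicate 1, above its background. In Aged + LRP1low it was 4.98 and 3.20, below the background of both libraries. Granulosa cell libraries of Aged mice held almost no granulosa RNA, with a marker median of 0.0482 and 0.187 FPKM against 74.9 in Young. The marker median was also low in Aged + LRP1high replicates 1 and 2 (1.26 and 0.326), against 21.4 in replicate 3, and in both Aged + LRP1low libraries (0.791 and 0.217). A single gene, Gm10800, reached 925270 and 937196 FPKM in the Aged granulosa libraries, 654349, 944446 and 437534 in Aged + LRP1high, and 441081 and 928425 in Aged + LRP1low. The granulosa library labelled Aged + Unsorted held oocyte RNA instead: its oocyte marker median was 800 FPKM and its correlation with oocyte Aged + Unsorted replicate 2 across 21767 genes was 0.968. It belongs to no group compared below, although it counts in the filter on low granulosa values. Gm10800 also led in the oocyte libraries of Young replicate 1 (749997 FPKM), Aged (205535 and 89780) and Aged + LRP1low (170040 and 317290). In the other oocyte libraries another gene led, at 46186 FPKM or less. Estimated oocyte depth was 0.578 and 0.791 gigabases in Aged and 0.515 and 0.278 in Aged + LRP1low. In Aged + LRP1high it was 3.15, 2.29 and 2.72. The part of Gm10800 and of depth in the comparisons was not tested. In RNA of pooled cells, fewer cells of a type and less RNA per cell cannot be told apart.

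**Figure D1:**
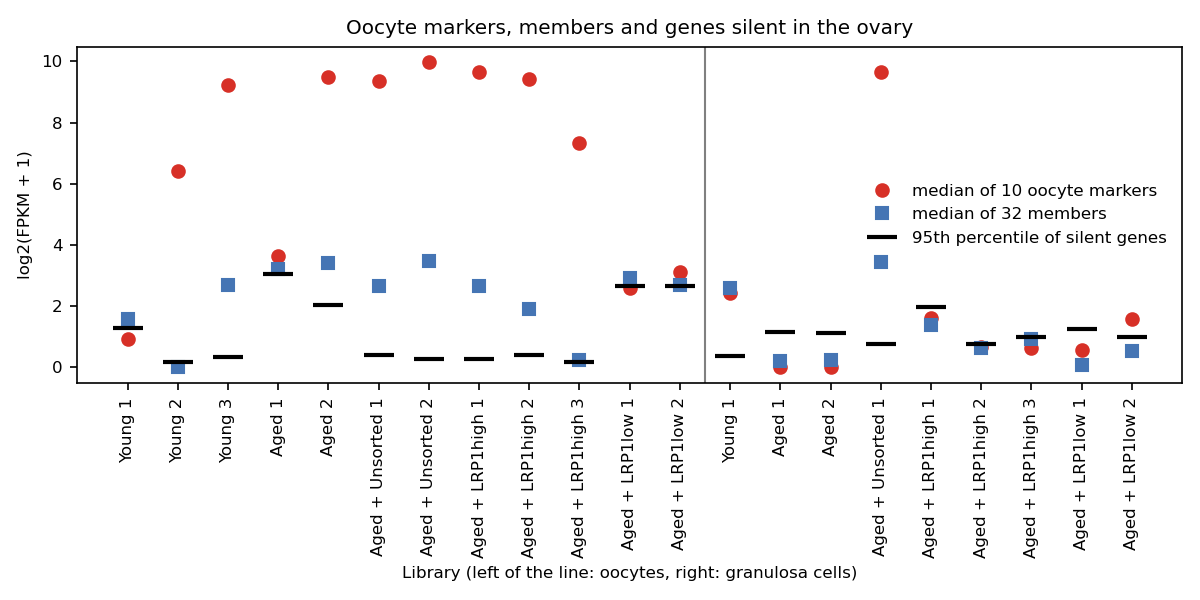
Levels on a log2(FPKM + 1) axis in the 21 libraries: the median of 10 oocyte markers (circles), the median of the 32 members (squares) and the 95th percentile of 332 silent genes (black bars). Members lie close to the background in both Aged + LRP1low oocyte libraries (medians 6.51 and 5.48 FPKM against 5.35 and 5.39) and the granulosa library of Aged + Unsorted has the marker level of an oocyte.

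Against that background, 20, 11 and 31 of the 32 members were detected in the Young oocyte libraries. The counts were 19 and 23 in Aged and 23 and 31 in Aged + Unsorted. They were 30, 27 and 16 in Aged + LRP1high and 19 and 17 in Aged + LRP1low. Of all genes, 10.4% to 29.0% were above background in the oocyte libraries, and of protein-coding genes 20.5% to 53.4%. In Young replicate 2, the library with 11, 20 members were listed at 0. Aged + LRP1high replicate 3 had 9 members at 0 and a member median of 0.174 FPKM. In granulosa cells 30 were above background in Young, 1 and 2 in the Aged libraries, 8, 9 and 13 in Aged + LRP1high and 6 in each Aged + LRP1low library.

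The members differed widely in level, and 1 gene of each class stood at its top in oocytes. Among the checkpoint genes it was Chek1, the kinase that Atr activates, with 0.467, 14.2 and 88.1 FPKM in the Young libraries, 9.97 and 61.2 in the Aged, 94.1 and 173 in Aged + Unsorted, 86.6, 41.1 and 98.2 in Aged + LRP1high, and 2.99 and 3.18 in Aged + LRP1low. The 4 lowest of these 12 values were in the 4 libraries low in oocyte markers. Topbp1, which activates Atr, came next among checkpoint genes with a mean of 9.62 FPKM over the oocyte libraries. It ranged from 0.132 in Aged + LRP1high replicate 3 to 17.7 in Aged + Unsorted replicate 2.

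Among the break repair genes Xrcc6, a Ku subunit, led with 2.32, 6.68 and 22.0 FPKM in the Young libraries, 14.4 and 11.6 in the Aged, 10.9 and 17.0 in Aged + Unsorted, 21.2, 45.1 and 189 in Aged + LRP1high, and 8.20 and 3.05 in Aged + LRP1low. The mean of its Aged + LRP1high libraries was 85.0 ± 90.7 FPKM (SD, n = 3), so the group's high level came largely from 1 library. Its exons overlap those of Desi1 on the other strand, which leaves its level uncertain. H2afx, which codes for the histone that is phosphorylated around breaks, had a similar mean of 28.1 FPKM and was as uneven within groups: 5.31 and 81.5 in Aged, and 31.7, 93.3 and 0.485 in Aged + LRP1high. In the remaining groups H2afx was 3.28, 0.216 and 13.7 in Young oocytes, 23.9 and 65.5 in Aged + Unsorted, and 9.30 and 9.47 in Aged + LRP1low.

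Among the base excision genes Xrcc1, the scaffold of the late steps, led with 4.29, 0 and 9.16 FPKM in the Young libraries, 13.4 and 27.3 in the Aged, 70.6 and 31.1 in Aged + Unsorted, 27.7, 78.2 and 67.0 in Aged + LRP1high, and 11.3 and 9.77 in Aged + LRP1low. All 3 Aged + LRP1high values were above all 3 Young values. Ung, the glycosylase that removes uracil, was 4.17, 0 and 13.0 FPKM in the Young libraries, 8.01 and 8.79 in the Aged, 34.0 and 20.7 in Aged + Unsorted, 21.2, 17.2 and 0.475 in Aged + LRP1high, and 6.40 and 5.57 in Aged + LRP1low. At the low end stood the large kinases Atm, with an oocyte mean of 1.38 FPKM, and Prkdc, with 1.28.

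**Figure D2:**
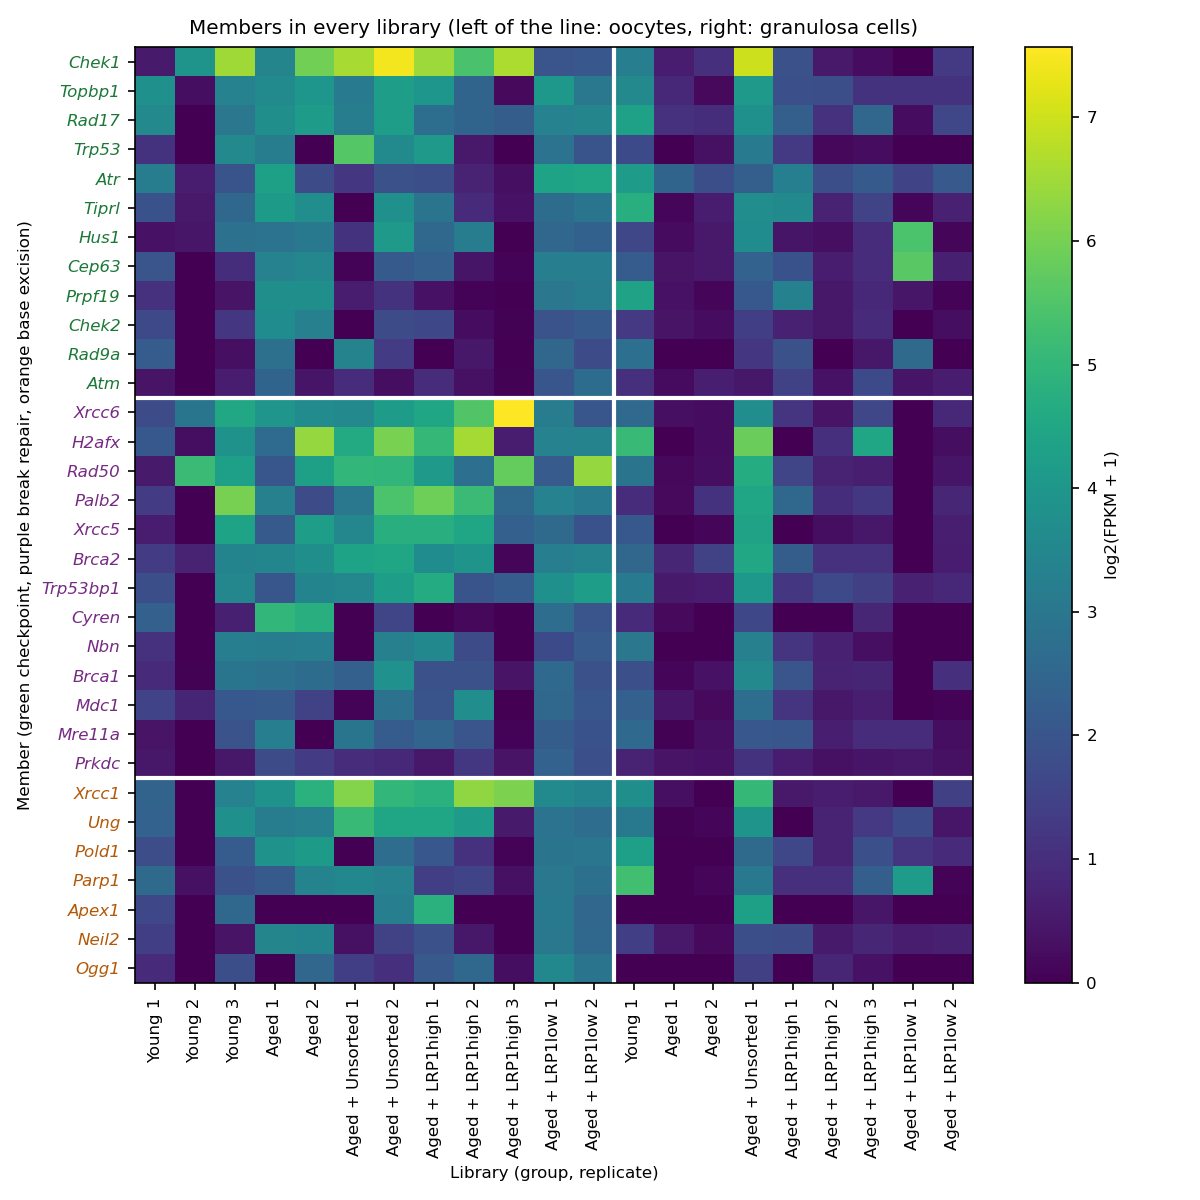
Level of each member (rows, grouped by class and ordered by oocyte mean) in each library (columns) as log2(FPKM + 1), with oocyte libraries left of the vertical line. Chek1 is the brightest checkpoint row, 20 members are dark in oocyte Young replicate 2, and the granulosa library of Aged + Unsorted resembles the oocyte columns.

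The members on the aging list were low in Young and high in Aged oocytes, which is how they came to be on it. Prpf19, a ubiquitin ligase of the spliceosome that also serves Atr activation, was 1.10, 0 and 0.305 FPKM in Young and 12.5 and 12.7 in Aged. In the transplanted groups Prpf19 was 0.477 and 1.16 in Aged + Unsorted, 0.295, 0.0529 and 0 in Aged + LRP1high, and 6.97 and 8.31 in Aged + LRP1low. The Aged + Unsorted and Aged + LRP1high values thus lay at the Young level, and the Aged + LRP1low values lay between Young and Aged.

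Cyren, a small protein that holds back direct end joining in S and G2 phase, was 3.98, 0 and 0.590 FPKM in the Young libraries, 31.2 and 26.5 in the Aged, 0 and 2.02 in Aged + Unsorted, 0, 0.122 and 0 in Aged + LRP1high, and 5.59 and 2.97 in Aged + LRP1low. Both Aged values were the highest of the 12. Its exons overlap those of Tmem140 on the other strand, and whether the counting used strand is not given in the sources used here. Tmem140 was 3.62 and 0 FPKM in Aged and 12.7 and 15.5 in Aged + LRP1low.

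Chek2, the kinase that Atm activates, was 2.19, 0 and 1.304 FPKM in the Young libraries, 11.8 and 8.73 in the Aged, 0 and 2.41 in Aged + Unsorted, 2.12, 0.182 and 0.0320 in Aged + LRP1high, and 2.86 and 3.41 in Aged + LRP1low. Cep63, a centrosome protein that is a target of the damage kinases, was 2.99, 0 and 0.999 in the Young libraries, 9.30 and 10.3 in the Aged, 0.0544 and 3.38 in Aged + Unsorted, 4.02, 0.332 and 0.0630 in Aged + LRP1high, and 8.36 and 8.36 in Aged + LRP1low. Both followed the order of Prpf19 in that no value outside Aged reached the lower Aged value, although both Chek2 values in Aged + LRP1low were under the background of their libraries.

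Tiprl, a regulator of protein phosphatases that act on checkpoint substrates, was 2.72, 0.435 and 4.71 FPKM in the Young libraries, 16.4 and 12.1 in the Aged, 0 and 13.1 in Aged + Unsorted, 6.55, 0.869 and 0.287 in Aged + LRP1high, and 5.35 and 6.66 in Aged + LRP1low. It is the list member whose Aged + Unsorted values overlapped those of Aged. Neil2, a glycosylase for oxidised bases, was 1.67, 0 and 0.320 in the Young libraries, 9.78 and 9.66 in the Aged, 0.260 and 1.73 in Aged + Unsorted, 2.67, 0.399 and 0 in Aged + LRP1high, and 7.22 and 4.92 in Aged + LRP1low. Pold1, the catalytic subunit of DNA polymerase delta, was 2.42, 0 and 3.64 in the Young libraries, 13.8 and 16.3 in the Aged, 0 and 5.52 in Aged + Unsorted, 3.17, 1.11 and 0.0442 in Aged + LRP1high, and 6.59 and 6.79 in Aged + LRP1low. All 7 list members were above the background of both Aged libraries (7.31 and 3.12 FPKM).

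The study lists PCR primers for Tiprl and Pold1, which show the stretch of each transcript that such an assay reads. Its text names Tiprl, but not Pold1, among genes restored in aged oocytes by LRP1high cells. It reports that these effects exceeded those of unsorted and LRP1low cells. The Tiprl pair spans 117 bases and both primers match 2 of 6 annotated transcripts. The Pold1 pair spans 160 bases and matches 3 of 9.
Tiprl forward primer: tggaaaagttagctgacgagc
Tiprl reverse primer: cgtccgtagcattgaactctatt
Pold1 forward primer: actaccccgccttatggca
Pold1 reverse primer: cagctccaaccagttgcatc

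**Figure D3:**
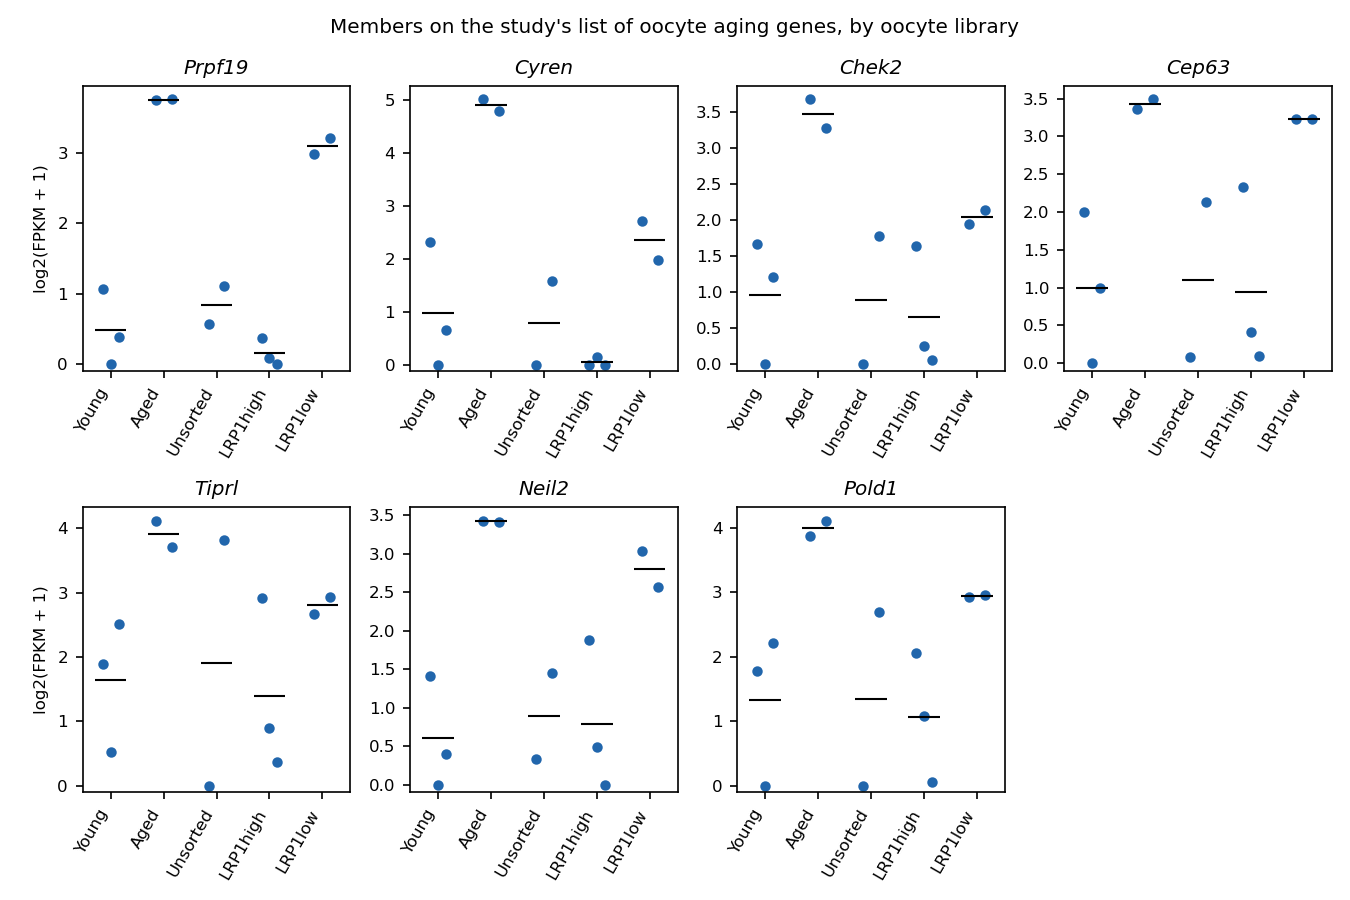
The 7 members on the study's aging list in the 12 oocyte libraries, as log2(FPKM + 1), with a bar at each group mean and separate axes. Both Aged points lie above every Young, LRP1high and LRP1low point in each panel, and the Aged + Unsorted points overlap Aged in the Tiprl panel alone.

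Over all members, both Aged values exceeded all 3 Young values for 12 of 32 (37.5%), against 11% of the 28004 genes in the fit. These were the 7 list members and 5 of the other 25 (20.0%): Rad17, the clamp loader, Hus1 of the clamp, Brca2, Prkdc and Xrcc1. Both Aged values of Prkdc (2.31 and 1.55 FPKM) were under the background of their libraries. The Hus1 value in Aged replicate 1 (6.40) was as well. No member was below Young in both Aged libraries, against 0.646% of genes. The median difference of Aged minus Young, on the log2(FPKM + 1) scale used for all differences, was 1.53 for checkpoint genes, 1.21 for break repair, 1.17 for base excision and 0.945 for all genes. The members were chosen with these values known, so the counts describe the list.

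The next comparisons ask whether transplanted cells changed the level of the members in aged oocytes. They share the Aged libraries with the aging list, so a low value against Aged for a list member is not independent of its choice. Prpf19 and Cyren were the members called in Aged + LRP1high against Aged (fold change over 1.5 and Benjamini-Hochberg adjusted p under 0.05, limma). Cyren fell by 4.84 ± 0.79 (SE; adjusted p = 0.0379) and Prpf19 fell by 3.61 ± 0.59 (adjusted p = 0.0379), in 3 of 3 Aged + LRP1high libraries below both Aged libraries. Of all genes 0.753% were called lower and 0.0179% higher, and the median gene differed by -1.05, the members' median being -1.02. Leaving out any one Aged + LRP1high library, or normalizing by quantiles, ended both calls (adjusted p = 0.168 to 0.197 without one library, and 0.153 for Cyren and 0.282 for Prpf19 with quantiles). A pseudocount of 0.1, a trended robust fit, subtraction of the silent-gene median, a replicate block and a fit of only the compared groups ended both as well. Without Aged replicate 2, which leaves 1 Aged library assumed to vary like the other groups, 6 of 32 members were called lower (Prpf19, Cyren, Chek2, Neil2, Atr and Atm), against 38.7% of all genes.

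Another 5 members were lower at an unadjusted p under 0.05 and did not pass the adjustment, and all were on the aging list. Chek2 differed by -2.84 (adjusted p = 0.121), Neil2 by -2.64 (0.127), Pold1 by -2.93 (0.198), Cep63 by -2.48 (0.273) and Tiprl by -2.52 (0.37). Of all genes 9.94% were lower at that level, and no member was higher (0.925% of genes were). In 11 members all Aged + LRP1high values were below both Aged values (12.4% of all genes were), and in Xrcc6 and Xrcc1 all were above (3.85%). By class, the median difference of the members not on the aging list was -1.15 for 8 checkpoint genes, -0.01 for 12 break repair genes and 0.39 for 5 base excision genes, against -1.05 for all genes.

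In Aged + Unsorted against Aged no member was called, and 0% of all genes were. At an unadjusted p under 0.05, 6 members were lower (7.04% of genes were) and none was higher (1.7%). The nearest to a call were Cyren, which differed by -4.10 ± 0.86 (adjusted p = 0.0927), and Prpf19, by -2.93 ± 0.65 (adjusted p = 0.099). With no filter on low values both were called, with 1.56% of genes called lower. Without Aged replicate 2, which leaves 1 Aged library, 3 of 32 members were called lower against 35.6% of genes. Trp53, the p53 gene, was 8.11 and 0 FPKM in Aged and 46.4 and 10.9 in Aged + Unsorted, a difference of 2.98 ± 1.59 (adjusted p = 0.436). The members' median difference was 0.03 and that of all genes -0.86.

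In Aged + LRP1low against Aged no member was called, whereas 3.09% of genes were called higher and 0.075% lower. Cyren alone had an unadjusted p under 0.05, with a difference of -2.54 ± 0.86 (adjusted p = 0.163; 0.953% of genes were lower at that level and 13.2% higher). The members' median was -0.37, and that of all genes was 0.68. In these libraries low in oocyte markers, Chek1 differed by -2.68 ± 1.53 (adjusted p = 0.494). Apex1, the endonuclease that nicks the emptied site, had values of 0 and 0 in Aged against 7.31 and 4.64 FPKM in Aged + LRP1low. The 4.64 is under the background of its library (5.39). Both Aged + LRP1low values were below both Aged values in 16 members (9.55% of genes) and above them in 5 (27.1%). The part of background and of other cells in these values was not tested.

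**Figure D4:**
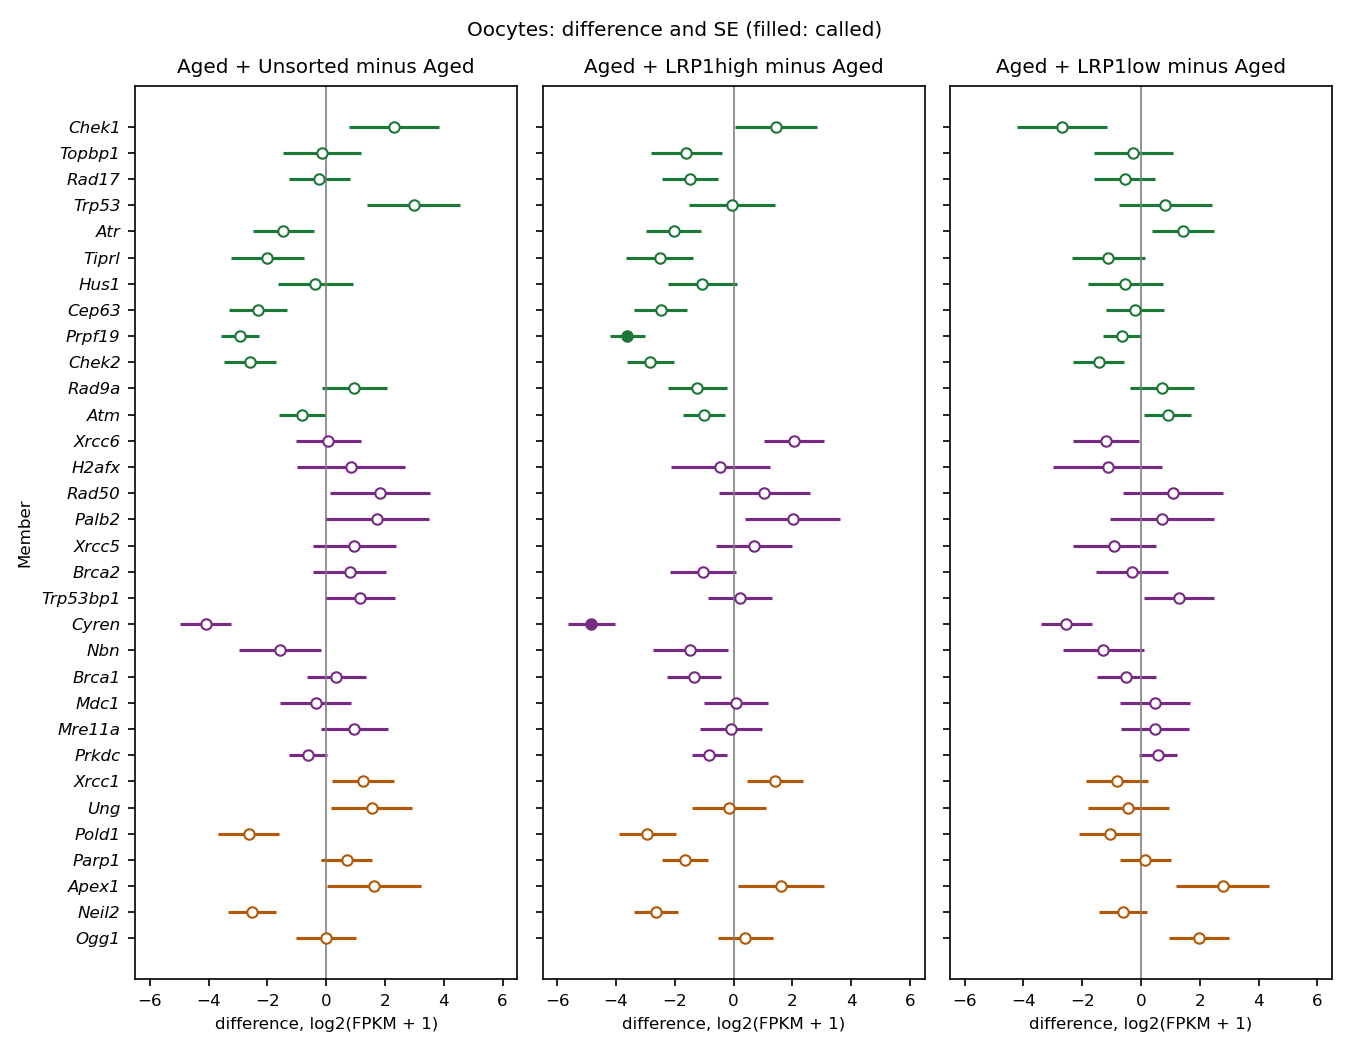
Difference from Aged of each member in oocytes of the 3 transplanted groups, on the log2(FPKM + 1) scale, with the SE of the limma fit as bars and filled points for calls. The filled points are Prpf19 and Cyren in Aged + LRP1high, and the 7 aging-list members lie left of zero in all 3 panels.

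The sorted populations were compared with each other to see whether high and low LRP1 cells left different levels. In Aged + LRP1high against Aged + LRP1low, Xrcc6 was called higher, by 3.25 ± 1.01 (adjusted p = 0.0425), while Prpf19 fell by 2.96 ± 0.59 (adjusted p = 0.0193) and Atr fell by 3.47 ± 0.95 (adjusted p = 0.0326). Atr, the kinase of replication stress, was 2.51, 0.700 and 0.248 FPKM in Aged + LRP1high and 20.2 and 21.3 in Aged + LRP1low. Its exons overlap a small nuclear RNA gene on the same strand (Gm24004) and antisense genes, which leaves its level uncertain. The mean read depth over Atr was 2.71, 0.199 and 0.093 in Aged + LRP1high. In Aged + LRP1low, libraries of 0.515 and 0.278 gigabases, it was 1.45 and 0.776. Of all genes 1.21% were called higher and 24.8% lower, so 2 of 32 members lower is below the share of all genes. The groups did not overlap in 13 members that were lower (62.6% of genes) and in 3 that were higher (6.82%), and at an unadjusted p under 0.05 there were 8 lower (45.9%) and 3 higher (3.17%). Chek1 was higher by 4.13 ± 1.40 and missed the threshold (adjusted p = 0.0503). Leaving out any library of either group ended these 3 calls, and the Aged + LRP1low libraries are those with oocyte marker medians of 5.02 and 7.77 FPKM.

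Against Young, no member was called in Aged + LRP1high oocytes (0% of genes were). Xrcc1, higher by 3.83 ± 0.86, and Xrcc6, by 2.79 ± 0.91, had an unadjusted p under 0.05 and an adjusted p of 1, a level at which 2.96% of genes were higher and 0.211% lower. Xrcc1 was the member whose groups did not overlap (1.67% of genes were higher in this way and 0.603% lower). Against Aged + Unsorted no member was called either (0% of genes), and Parp1, which builds poly(ADP-ribose) at strand breaks, was the one with an unadjusted p under 0.05: it was 1.66, 1.93 and 0.272 FPKM in Aged + LRP1high and 10.6 and 9.32 in Aged + Unsorted, a difference of -2.35 ± 0.79 (adjusted p of 1). Of all genes 2.55% were lower at that level and 0.243% higher. The groups did not overlap in 6 members that were lower (8.48% of genes) and in Xrcc6, which was higher (2.06%). In that comparison the members' median was -0.63 against 0 for all genes. With 1 compared library left out it was -1.24 to -0.03, the latter without Aged + LRP1high replicate 3. A fit of only these 2 groups kept 27 members and 11249 genes, with medians of -0.69 and -0.67.

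In granulosa cells, 27 of the 32 members passed the filter of a mean FPKM of 1, in 13002 genes. Apex1, Mdc1, Neil2, Trp53 and Xrcc5 passed only through the library with oocyte RNA, and 22 members remained without it. No member was called in any of the 3 comparisons, and 0% of genes were. For Aged + LRP1high against Aged the median difference of the 27 was 0.75, while that of all genes was 0.89. The groups did not overlap in 15 of the 27, against 50.4% of genes. Pold1 (0 in both Aged libraries and 2.05, 0.667 and 2.60 FPKM in Aged + LRP1high), Topbp1 and Trp53bp1, a scaffold of end joining, were higher at an unadjusted p under 0.05 (adjusted p = 0.458 for each), against 7.99% of genes higher and 0.515% lower. Aged granulosa libraries had granulosa markers near 0, so these differences start from libraries with 1 and 2 members above background.

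Aged + LRP1low differed from Aged in granulosa cells by a median of 0.16 over the members and 0.31 over all genes, with no member at an unadjusted p under 0.05 (3.05% of genes were higher and 0.738% lower). Its groups did not overlap in 6 members that were higher (30.5% of genes) and 2 that were lower (6.95%). Aged + LRP1high exceeded Aged + LRP1low by a median of 0.57 over the members and 0.45 over all genes, also with none (4.14% of genes were higher and 1.01% lower), and the groups did not overlap in 10 members, all higher (21.7%). The highest granulosa levels of checkpoint members outside Young and the library with oocyte RNA were those of Hus1 (41.7 FPKM) and Cep63 (48.7) in Aged + LRP1low replicate 1, where the luteal marker median was 519 FPKM. Their values in replicate 2 were 0.0833 and 0.572. In Young granulosa cells, a single library, Parp1 stood highest at 37.9 FPKM, followed by H2afx at 34.0 and Tiprl at 26.5.

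Oocytes and granulosa cells were compared within Aged + LRP1high, the group with 3 libraries of both. Its granulosa libraries are those with marker medians of 1.26, 0.326 and 21.4 FPKM and Gm10800 at 437534 FPKM or more, and the part of this in the differences was not tested. Of the 27 members that passed the filter on the mean of the 6 libraries, 9 had a granulosa mean under 1 FPKM and passed through their oocyte level. There 5 of 27 members were called higher in oocytes and none lower. Of the 13047 genes tested, 12.2% were called higher and 0.468% lower. The called Xrcc1 and Xrcc5 are among the 9, with granulosa means of 0.462 and 0.198 FPKM. Their calls are thus not independent of the filter. With no filter, 2 of 32 members were called higher, against 1.58% of genes. Chek1 was 86.6, 41.1 and 98.2 FPKM in oocytes and 2.67, 0.427 and 0.187 in granulosa cells, a difference of 5.28 ± 0.96 (adjusted p = 0.00115). Xrcc1 was 27.7, 78.2 and 67.0 FPKM in oocytes and 0.440, 0.525 and 0.420 in granulosa cells, a difference of 5.20 ± 0.93 (adjusted p = 0.00109).

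The other 3 calls were break repair genes, in the same direction. Xrcc6 was 1.26, 0.309 and 2.06 FPKM in granulosa cells and higher in oocytes by 4.80 ± 1.02 (adjusted p = 0.00372). Its Ku partner Xrcc5 was 26.6, 21.2 and 4.03 in oocytes and 0, 0.206 and 0.389 in granulosa cells, a difference of 3.62 ± 0.98 (adjusted p = 0.0194). Rad50, the long coiled arm of the break sensor, was 16.1, 5.84 and 53.7 in oocytes and 2.00, 0.642 and 0.548 in granulosa cells, a difference of 3.24 ± 1.01 (adjusted p = 0.0414). In these 5 and in Trp53bp1 every oocyte value was above every granulosa value (18.8% of genes). Chek1 and Xrcc1 remained called in each of the 13 alternative fits of this comparison, and Xrcc6 in those without any one library, while Rad50 lost its call without any one granulosa library or without oocyte replicate 1 or 3, and the call of Xrcc5 ended without granulosa replicate 1 or 2 or without oocyte replicate 1 or 2. In the other direction, Atr and Prpf19 were lower in all 3 oocyte libraries than in all 3 granulosa libraries (12.9% of genes) and did not pass the test (differences of -1.44 and -1.42, adjusted p = 0.373 and 0.396).

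**Figure D5:**
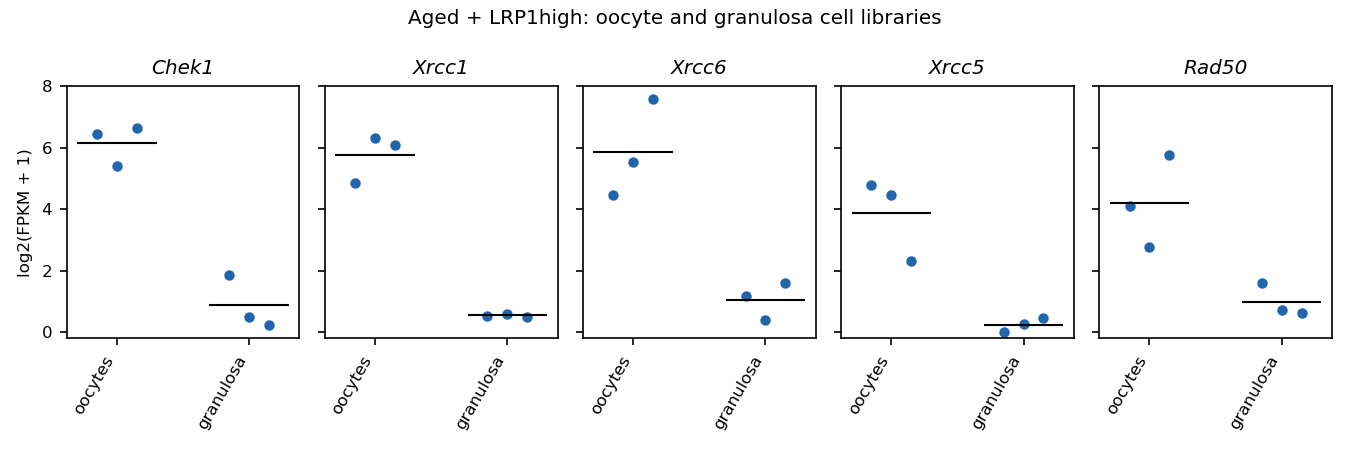
The 5 members called between oocytes and granulosa cells of Aged + LRP1high, as log2(FPKM + 1) in each library with a bar at the mean. In each panel the 3 oocyte points lie above the 3 granulosa points.

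A wider list of 122 genes of the same pathways was read from the same fits, with 119 tested in oocytes. None was called in Aged + LRP1high or Aged + Unsorted against Aged. At an unadjusted p under 0.05, 3 were higher and 6 lower in the former (0.925% and 9.94% of all genes), and 3 higher and 3 lower in the latter (1.7% and 7.04%). In Aged + LRP1low against Aged, Pmaip1 (Noxa, a p53 target that promotes apoptosis) was called higher, from 0 in both Aged libraries to 3.62 and 7.78 FPKM, the first of which is under the background of its library (5.35), and 3.09% of all genes were called higher there. In Aged + LRP1high against Aged + LRP1low, 2 of 119 were called higher (1.21% of all genes) and 15 lower (24.8% of all genes), among them Pcna, the replication clamp (higher by 4.15 ± 1.38, adjusted p = 0.0481), Btg2, a p53 target (higher by 3.60 ± 1.20, adjusted p = 0.0488), and Mpg, an alkyl-base glycosylase (fell by 3.29 ± 1.10, adjusted p = 0.0492). In Aged + LRP1high oocytes against granulosa cells, 14 of 99 were called higher (12.2% of all genes) and none lower, led by Mdm4, an inhibitor of p53 (5.07 ± 1.01, adjusted p = 0.00242), Neil3, a glycosylase (4.34 ± 0.92, adjusted p = 0.00376), and Shld2, which shields broken ends from resection (4.08 ± 1.10, adjusted p = 0.0187). Neil3 passed the filter through its oocyte level, being 0.816, 0.429 and 0.959 FPKM in granulosa cells. So did other genes of the list, such as Nhej1 (0, 0 and 0.682 FPKM). The count of genes called higher in oocytes is thus not independent of the filter. No gene of the 97 tested was called in granulosa cells. At an unadjusted p under 0.05, 7 were higher in Aged + LRP1high against Aged (7.99% of all genes) and 0 lower (0.515%). For Aged + LRP1low against Aged 3 were higher (3.05%) and 0 lower (0.738%). For Aged + LRP1high against Aged + LRP1low 2 were higher (4.14%) and 1 lower (1.01%).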

How the data were processed

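RNA of 12 oocyte and 9 granulosa cell libraries was analysed. For each gene the authors deposited FPKM, TPM and coverage (mean read depth, a signal), made with HISAT2 2.2.1 and StringTie 1.3.3b; the processing notes name mm9, whereas identifiers and coordinates of 31 of 32 members are those of GENCODE vM21 on GRCm38. The authors' FPKM was the main unit, their TPM an alternative. FPKM of repeated identifiers was summed (no member was repeated). No counts were used, so counting intervals cannot be given; the ratio of coverage to FPKM over 21693 single-exon genes gave 0.278 to 3.40 gigabases per library. Values were put on a log2 scale with a pseudocount of 1, genes averaging 1 FPKM or more across the fitted libraries were kept, and limma 3.58.1 (R 4.3.3) was fitted with all groups of a cell type. P-values were adjusted over all genes by Benjamini-Hochberg, and a gene was called when its fold exceeded 1.5 with an adjusted p below 0.05. The fold is on the log2(FPKM + 1) scale and understates changes of low genes. The fits were tested on simulated data.

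The members, classes and the wider list were chosen with earlier results of these data known. Every member is accounted for; values per library are given for the 7 on the aging list, for members called and for the leading members of each class, and other genes only where a result turns on them or as the most changed of the wider list. Exons of 9 members overlap a coding gene on the other strand (Rad9a, Rad17, Cep63, Trp53bp1, Mre11a, Xrcc6, Cyren, Ogg1 and Apex1), which leaves their values uncertain, since the labels name a stranded kit, the methods another protocol, and neither the strand used in counting. Promoters are RefSeq sequences. The alternatives were another pseudocount, no filter, TPM, quantile normalization, a trended robust fit, a replicate block, subtraction of the silent-gene median, a fit of only the compared groups, and each library left out. Labels name no batch.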

Additional observations from a re-analysis of the deposited data

Results flagged for a closer look

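In 8 members every Aged + LRP1high library was below every Aged library in oocytes and above every Aged library in granulosa cells, which 7.78% of 19494 genes did in one direction or the other. Of these 8, 6 (Prpf19, Pold1, Tiprl, Chek2, Neil2 and Cep63) are on the aging list, which was drawn up for high levels in these same Aged oocyte libraries, so the count and the differences of those 6 are not independent of that choice. The change from Aged to Aged + LRP1high in oocytes minus that in granulosa cells was -4.94 for Prpf19, -4.33 for Pold1, -4.12 for Tiprl, -3.21 for Chek2, -3.30 for Neil2, -3.07 for Parp1, -3.18 for Cep63 and -2.30 for Brca1 on the log2(FPKM + 1) scale. The difference was tested as an interaction in limma, and no member passed the adjustment (0.00513% of genes did). The lowest adjusted p among the 30 members in that fit was 0.262, for Cyren, Prpf19 and Pold1. Both Aged granulosa libraries held almost no granulosa RNA, and the part of this in the difference was not tested.

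The granulosa library labelled Aged + Unsorted, used in no comparison, had 31 members above its background, against 1 and 2 in the Aged granulosa libraries. Of all genes 28.9% were above background there, against 3.44% and 2.84%. The Aged + Unsorted library held oocyte RNA, and its Chek1 level of 127 FPKM lay between those of the oocyte Aged + Unsorted libraries (94.1 and 173). The single Young granulosa library had 30 members above its background, where 29.3% of all genes were.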

How the results depend on the processing

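Where no member was called in the reported fit, most alternatives called none either. The oocyte counts with calls were less stable. For Aged + LRP1high against Aged the count stayed within 1.5 times of the reported one in 4 of 14 alternatives. Against Aged + LRP1low it did in 1 of 14, and for oocytes against granulosa cells in 9 of 13. The main exceptions follow, and their cause was not tested. For oocytes of Aged + LRP1high against Aged (2 called), 0 were called with a pseudocount of 0.1, quantile normalization, a trended robust fit, the silent-gene median subtracted, or only the compared groups, and 0 to 6 with 1 library left out. For Aged + Unsorted against Aged (0), 2 were called lower with no filter (1.56% of all genes) and with TPM (791 of 40850 genes). A setting chosen after seeing the data left out Young replicate 1 and Aged replicate 1, which were low in oocyte markers. It kept both Aged + LRP1low libraries, although they were low as well. It leaves 1 Aged library, and the members' median was -0.065 against 0 for all genes. With 1 compared library left out, which leaves 1 in a group, the members' median was -0.33 to 0.51. For Aged + LRP1low against Aged (0), 1 was called lower with no filter (0.358% of all genes, with 21.5% higher). With quantiles 1 was called lower (38 of 28004 genes, with 190 higher). Without Young replicate 1 and Aged replicate 1, which leaves 1 Aged library, the members' median was -0.47 against 1.82 for all genes. For Aged + LRP1high against Young (0), Xrcc1 was called higher without Young replicate 3, as were 207 of 29566 genes, the range being 0 to 1. For Aged + LRP1high against Aged + LRP1low (3), 0 were called with a pseudocount of 0.1 or the silent-gene median subtracted and in each of the fits with 1 library left out, 7 with no filter, 6 with TPM, 1 with quantiles, 11 with only the compared groups and 10 without the libraries low in oocyte markers. In granulosa cells, counts moved only without Aged + LRP1low replicate 2, which leaves 1 library in that group. For Aged + LRP1low against Aged the members' median was then -0.05 against 0.06 for all genes. For Aged + LRP1high against Aged + LRP1low it was 0.73 against 0.50. For oocytes against granulosa cells (5), 2 were called with no filter (1.58% of genes were called higher). With 1 library left out 3 to 7 were called, and 727 to 2780 genes were called higher, of 10335 to 14587 tested.

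With the replicate block, 0 members were called in oocytes of Aged + LRP1high against Aged and 0 against Aged + LRP1low, and no other count moved by over 1.5 times. Same-numbered libraries share only a number: the correlations of their deviations were -0.436 to 0.441 over 21 pairs in oocytes and -0.076 to 0.256 over 6 pairs in granulosa cells. Depth and 1 to 3 libraries a group limit what could be called.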

Other observations

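Claspin, which holds Chek1 at Atr and is listed as Clspn, is no member by name. It was 0.915, 0.0917 and 12.6 FPKM in Young oocytes, 2.68 and 18.7 in Aged, 42.1 and 28.9 in Aged + Unsorted, 14.2, 16.7 and 0.256 in Aged + LRP1high, and 7.60 and 4.80 in Aged + LRP1low. No comparison called it.

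Desi1, whose exons overlap Xrcc6 on the other strand, was 21.0, 35.0 and 0.950 FPKM in the Aged + LRP1high oocyte libraries, where Xrcc6 was 21.2, 45.1 and 189. Anapc13, on the other strand of Cep63, was 6.26 and 16.6 in Aged and 4.72, 13.7 and 0 in Aged + LRP1high oocytes. The mean read depth over Cyren was 3.00 and 3.48 in the Aged oocyte libraries and 5.14 in Aged + Unsorted replicate 2, a library of 2.96 gigabases against 0.578 and 0.791 in Aged.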
